A study of Mus musculus with 4 samples.

Results

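Ribosome biogenesis and RNA polymerase I genes were examined in the cerulein-injured mouse pancreas, as a list of 44 genes that runs from the transcription factor Myc through RNA polymerase I to the assembly factors of both ribosomal subunits. A gene was measured if an array row was annotated to its symbol alone, and its brightest such row was used. This held for 41 of the 44 genes, out of 22180 genes measured in all. The rows of Fbl, Tsr1 and Mrto4 carried further symbols as well, so these 3 genes have no value here.

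Whole pancreas was collected on day 5 of cerulein treatment from mice aged 8 weeks, and total RNA was hybridised to Affymetrix arrays. Cerulein, a cholecystokinin analog that over-stimulates acinar cells and causes pancreatitis, had been given intraperitoneally at 100 µg/kg, with 6 injections on every other day. The groups were mice null for Ifrd1, a transcriptional co-regulator (labelled IFRD1 null, n = 2), and wild-type mice (n = 2), and the comparison asks which transcripts depend on genotype in injured tissue. Every mouse had received cerulein. The null allele, the strain and the sex of the mice are not given in the labels, which call the samples biological replicates.

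Ifrd1 itself had 6.99 and 7.09 in the null arrays, against 9.04 and 9.07 in wild type (-2.02 ± 0.11, log2, SE, limma adjusted p = 0.138). The labelled tissue matched its markers: 12 of 16 acinar markers were measured, and their median level was 11.6 and 12.2 in the null arrays and 12.0 and 11.9 in the wild-type arrays. Xist had 10.2 and 9.58 in the null arrays, against 2.56 and 3.54 in wild type, and the Y-linked Uty, Kdm5d and Eif2s3y ran the other way in all 4 arrays. Genotype and sex, as these genes read it, therefore cannot be told apart in any value below. The null arrays also stood apart from each other. Against the wild-type mean, acinar markers had a median of -0.29 in Ifrd1 null 1 and 0.21 in Ifrd1 null 2, macrophage markers 0.16 and -0.42, and B and plasma cell markers 1.06 and -0.37 (log2). Wild type 1 held more intestinal signal than wild type 2, with 10 of 10 intestinal markers higher. Both null arrays lay below the wild-type mean for these markers, with medians of -0.47 and -0.26 in Ifrd1 null 1 and 2. Of the 10 markers 4 lay at or above the median level of all genes. In whole tissue, fewer cells of a type and less RNA per cell cannot be told apart.

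Ribosomes are built in the nucleolus. RNA polymerase I transcribes the precursor of the ribosomal RNAs, small nucleolar ribonucleoproteins (snoRNPs) guide its chemical modification, and a long series of assembly factors folds, cuts and exports the small and large subunits. Myc and its partner Max bind the E-box sequence CACGTG and are known to activate genes of all these steps in growing cells. Acinar cells carry an unusually large protein synthesis apparatus, and the nucleolus enlarges in tissue that regrows.

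The E-box was searched in promoters, because it is a feature of these genes that the list did not use. Promoters were taken from RefSeq (GRCm38.p6) as 250 bases before to 50 bases after the start of each gene, and CACGTG, which reads the same on both strands, was searched in each. Of the 44 genes 37 had an entry, and 8 of these 37 held the motif (21.6%). The share was 8.09% over all 27025 genes of the table and 11.9% over the 8765 genes with an entry whose array level was at or above the median. Among the other genes of the pathway described below it was 23.3% (20 of 86). The motif with up to 20 bases on each side is shown for every site found, written 5′ to 3′ on the strand of the gene with CACGTG in capitals, so that positions and flanks can be compared.
Rrn3, distal site (chr16:13780464-13780509, plus strand): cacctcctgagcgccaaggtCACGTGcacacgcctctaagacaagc
Rrn3, proximal site (chr16:13780631-13780676, plus strand): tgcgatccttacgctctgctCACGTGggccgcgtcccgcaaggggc
Mybbp1a (chr11:72441347-72441376, plus strand): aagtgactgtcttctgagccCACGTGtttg
Wdr43 (chr17:71616212-71616257, plus strand): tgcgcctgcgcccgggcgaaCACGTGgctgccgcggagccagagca
Utp20 (chr10:88826765-88826797, minus strand): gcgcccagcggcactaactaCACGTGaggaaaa
Tsr1 (chr11:74898084-74898129, plus strand): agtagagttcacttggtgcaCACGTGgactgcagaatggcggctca
Nop2 (chr6:125131803-125131848, plus strand): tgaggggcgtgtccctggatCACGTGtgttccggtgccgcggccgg
Pes1 (chr11:3963957-3964002, plus strand): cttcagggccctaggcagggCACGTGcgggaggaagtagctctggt
Nle1 (chr11:82908347-82908392, minus strand): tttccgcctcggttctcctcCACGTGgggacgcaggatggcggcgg

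Rrn3, which recruits RNA polymerase I to its promoter, was the one gene of the list with more than 1 site in this window, at 215 and 48 bases before the start. The site lay 60 bases before the start in Nop2, an RNA methyltransferase of the large subunit. In Pes1, Wdr43, Nle1, Tsr1, Utp20 and Mybbp1a it lay 3, 18, 24, 25, 38 and 41 bases after the start. The 7 measured genes with a site had a median difference between genotypes of -0.12 (log2, range -0.19 to 0.17, 5 lower and 2 higher). The 28 measured genes without one had a median of -0.07 (range -0.32 to 0.27, 19 lower and 9 higher). These ranges overlapped over most of their width, and no test was made of a split by motif. A match describes the letters of this window and does not show that a factor was bound.

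No gene of the list differed between genotypes past the threshold (limma adjusted p over all 22180 genes from 0.721 to 1.00, 0 of 41 genes under 0.05, and 1 of 41 at unadjusted p under 0.05). Over all genes 0.00451% passed the adjusted threshold, which was 1 gene, Uty. At unadjusted p under 0.05, 3.63% of all genes were lower in the null and 3.27% were higher. Differences were small: they lay between -0.32 and 0.27 on the log2 scale, and 19 of 41 were under 0.1 in size. The 95% interval of the limma fit lay within -1 and 1 for all 41 genes and within -0.5 and 0.5 for 19 of them, so a 2-fold difference in level lay outside every interval taken singly. Exact permutation of 2 and 2 labels allows no two-sided p under 0.333, so no such test is given per gene.

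**Figure D1:**
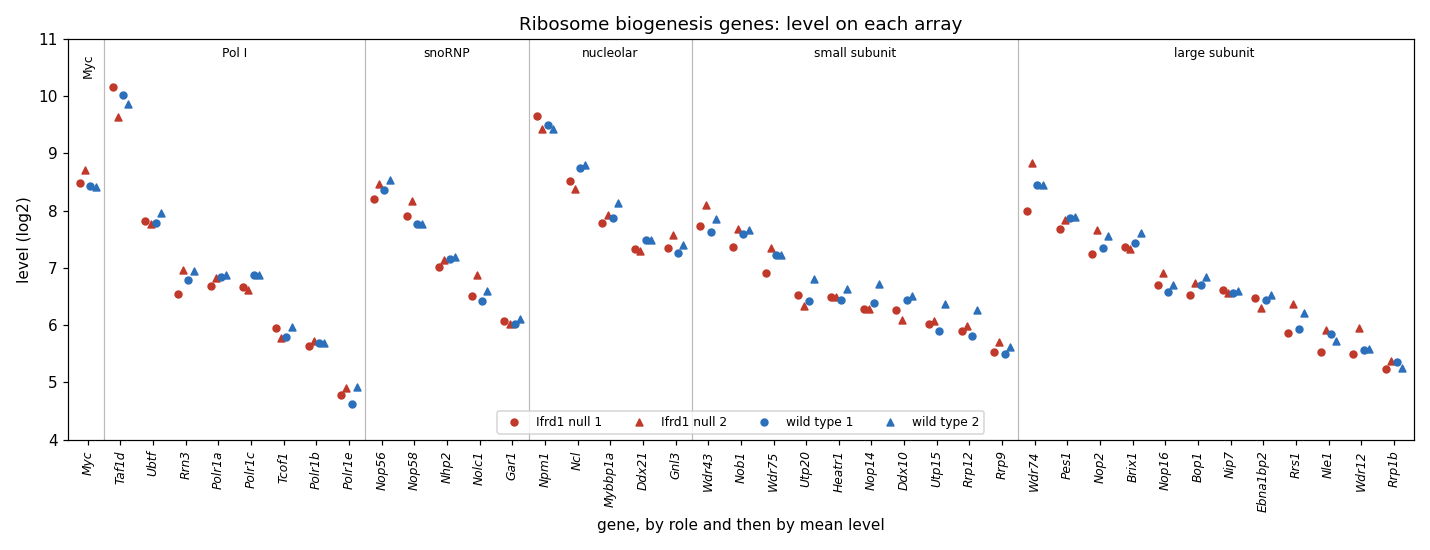
Level of each measured gene (y axis, log2) on Ifrd1 null 1 and 2 (red) and wild type 1 and 2 (blue), grouped by role and ordered by mean level along the x axis. Points of one gene lie close together compared with the spread between genes, whose mean levels run from 4.80 to 9.92.

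The list as a whole lay where other bright genes lay. Its median difference was -0.07, against -0.01 for all genes and -0.07 for genes at or above the median level, a class to which all 41 belong. Of the 41 genes 27 were lower in the null (65.9%), against 52.7% of all genes and 67.3% of genes at or above the median level. Both null arrays were below both wild-type arrays for 9 of the 41 (22.0%), where the share was 19.7% of all genes and 29.1% of the brighter genes. Both null arrays were above both wild-type arrays for 3 (7.32%), against 16.1% of all genes and 8.82% of the brighter genes. A gene that missed the threshold is not shown to be equal between genotypes, since with 2 arrays per group the adjusted threshold is a weak test. This holds for large differences too: Ifrd1 at -2.02 and Xist at 6.82 also missed it (limma adjusted p = 0.138 and 0.140). A count of 0 in this list therefore says little by itself. The intervals, not the count of 0, bound the sizes. The direction of the list depended on scaling: 21 of 41 were lower with quantile normalization (median -0.0037), 20 with cyclic loess (median 0.01) and 31 with arrays centred on their medians (median -0.12). Genes at or above the median level shifted alongside, with medians of -0.022, -0.015 and -0.12 under these scalings.

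**Figure D2:**
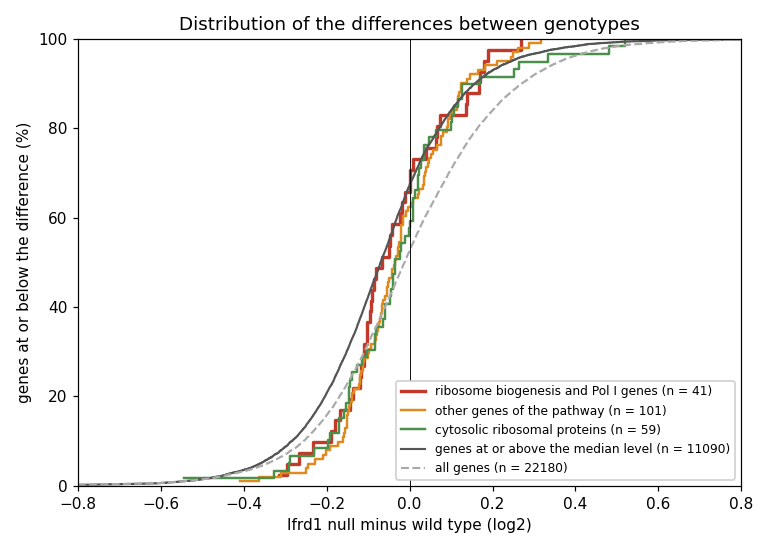
Cumulative share of genes (y axis, percent) against the difference between Ifrd1 null and wild type (x axis, log2) for the 41 ribosome biogenesis genes, the 101 other genes of the pathway, the 59 cytosolic ribosomal proteins, the genes at or above the median level and all genes. The medians of the 3 lists are -0.07, -0.04 and -0.03, beside -0.07 for the brighter genes and -0.01 for all genes.

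Myc, the transcription factor at the head of the list, had 8.49 and 8.71 in the null arrays and 8.43 and 8.41 in the wild-type arrays. Both null arrays were higher, one of them by less than 0.1 over either wild-type array. The difference was 0.18 ± 0.12 (log2, SE, limma adjusted p = 0.775), with a 95% interval from -0.15 to 0.51. It was 0.07 without Ifrd1 null 2 and 0.29 without Ifrd1 null 1.

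Of the 8 genes for transcription by RNA polymerase I, all measured, 7 were lower in the null and 1 higher, with a median difference of -0.07, and 0 passed. Polr1c, a subunit shared by RNA polymerases I and III, had 6.67 and 6.61 in the null arrays and 6.87 and 6.88 in the wild-type arrays. The groups did not overlap, and the difference was -0.23 ± 0.10 (SE, limma adjusted p = 0.727). Polr1a, the largest catalytic subunit of RNA polymerase I, had 6.68 and 6.83 in the null arrays and 6.84 and 6.87 in the wild-type arrays, so that the nearest arrays of the groups lay almost level (-0.10 ± 0.11, SE). The second large subunit, Polr1b, was at 5.63 and 5.73 in the null arrays and at 5.69 in both wild-type arrays.

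The factors that load the polymerase overlapped between genotypes. Rrn3 had 6.54 and 6.96 in the null arrays and 6.79 and 6.95 in the wild-type arrays, and the gap between the null arrays was larger than the difference of -0.12 ± 0.18 (SE). Ubtf, which binds ribosomal DNA along its length, had 7.82 and 7.77 in the null arrays and 7.79 and 7.96 in the wild-type arrays. Polr1e, a polymerase subunit, and Tcof1, the nucleolar phosphoprotein treacle, differed by 0.06 ± 0.15 and -0.02 ± 0.13 (log2, SE). Polr1e had the lowest level of the list, with a mean of 4.80.

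Taf1d, a subunit of the selectivity factor of RNA polymerase I, had the highest value, with 10.16 and 9.63 in the null arrays and 10.02 and 9.87 in the wild-type arrays. Its difference of -0.05 ± 0.21 (SE) changed sign with quantile normalization (0.0064), cyclic loess (0.03), the mean over its rows (0.03), without Ifrd1 null 2 (0.21) and without wild type 1 (0.03). The array has 11 rows annotated to Taf1d alone, of which 2 hold identical values. Row means ran from 4.27 to 9.92, and row differences from -0.40 to 0.33, with 5 lower and 6 higher. Within Taf1d lie 6 snoRNA genes, by the RefSeq annotation. No source used here says which row measures the mRNA, so the level of Taf1d itself is uncertain.

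Among the snoRNP genes, 5 of 6 were measured, 3 lower and 2 higher, with a median of -0.02 and 0 past the threshold. Nop58, a core protein of box C/D snoRNPs, had 7.90 and 8.16 in the null arrays and the same value of 7.76 in both wild-type arrays. Its groups did not overlap, and its difference of 0.27 ± 0.13 (SE, limma adjusted p = 0.737) was the highest of the list. Its binding partner Nop56 ran the other way at -0.11 ± 0.15 (SE), with 8.20 and 8.47 in the null arrays and 8.36 and 8.53 in the wild-type arrays. The sign of Nop56 turned without Ifrd1 null 1 (0.02). Dimmer rows of Nop56 lay at -0.34 and -0.09, and the mean over its rows gave -0.18.

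Nolc1, a chaperone of snoRNPs, had 6.51 and 6.88 in the null arrays and 6.42 and 6.59 in the wild-type arrays (0.19 ± 0.17, SE). The overlap of its groups came from Ifrd1 null 1 and wild type 2, and its difference was 0.0065 without Ifrd1 null 2 and 0.37 without Ifrd1 null 1. Gar1 and Nhp2, which belong to H/ACA snoRNPs, lay at -0.02 ± 0.10 and -0.09 ± 0.11 (SE). Nhp2 was lower in both null arrays, at 7.02 and 7.13 against 7.15 and 7.19 in the wild-type arrays.

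The 5 abundant nucleolar proteins were all measured, 3 lower and 2 higher, with a median of -0.14. Ncl, nucleolin, which binds ribosomal RNA and chromatin in the nucleolus, had the lowest difference of the list. It had 8.52 and 8.38 in the null arrays and 8.74 and 8.79 in the wild-type arrays, with both null arrays below both wild-type arrays. The difference was -0.32 ± 0.11 (SE), or 1.24-fold lower, and the limma adjusted p was 0.721. Ncl was the 1 gene of the list at unadjusted p under 0.05, and its 95% interval ran from -0.61 to -0.02. That count was 6 without Ifrd1 null 1, when 2232 of all genes reached it, and 2 without Ifrd1 null 2, when 2105 did. It was 0 without wild type 2, with quantile normalization and with the replicate number as a block.

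The promoter of Ncl is shown whole because its interval alone excluded 0. It lies on the minus strand of GRCm38.p6, is 300 bases long with 69.3% G or C, and holds no CACGTG.
Ncl (chr1:86359406-86359705, minus strand): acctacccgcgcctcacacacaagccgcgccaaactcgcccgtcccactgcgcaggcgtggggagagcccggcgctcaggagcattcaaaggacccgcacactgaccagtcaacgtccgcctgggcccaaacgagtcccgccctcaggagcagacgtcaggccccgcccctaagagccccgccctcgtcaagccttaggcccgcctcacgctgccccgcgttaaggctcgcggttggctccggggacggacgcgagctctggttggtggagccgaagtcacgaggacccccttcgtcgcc

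Ddx21, an RNA helicase of the nucleolus, had 7.34 and 7.30 in the null arrays and 7.49 and 7.48 in the wild-type arrays. The gap between groups was wider than that within either of them, with a difference of -0.17 ± 0.10 (SE, limma adjusted p = 0.761). A dimmer row of Ddx21 overlapped between genotypes, with 5.53 and 5.87 in the null arrays and 5.47 and 5.90 in the wild-type arrays (0.02). The mean over both rows gave -0.07. Npm1, nucleophosmin, a chaperone of ribosome assembly, was the brightest of the 5, with 9.65 and 9.42 in the null arrays and 9.50 and 9.43 in the wild-type arrays. Its difference of 0.07 ± 0.13 (SE) turned without Ifrd1 null 1 (-0.04) and with the mean over its rows (-0.07). A dimmer row of Npm1 was lower in both null arrays, with 4.04 and 3.95 against 4.06 and 4.36 in the wild-type arrays (-0.21). Mybbp1a and the nucleolar GTPase Gnl3 lay at -0.14 ± 0.14 and 0.14 ± 0.13 (SE), with overlapping groups.

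Of 11 genes for the small subunit, 10 were measured, 8 lower and 2 higher, with a median of -0.09 and 0 past the threshold. Ddx10, an RNA helicase of the early precursor, had 6.27 and 6.09 in the null arrays and 6.44 and 6.51 in the wild-type arrays (-0.30 ± 0.12, SE, limma adjusted p = 0.722). Nop14 had 6.29 and 6.28 in the null arrays and 6.38 and 6.71 in the wild-type arrays, so that wild type 2 set most of its difference of -0.27 ± 0.15 (SE). Both genes had groups that did not overlap. Wdr43, a subunit of the processome that matures the small subunit, was the brightest, at 7.73 and 8.10 in the null arrays and 7.64 and 7.85 in the wild-type arrays. Its difference of 0.17 ± 0.18 (SE) turned without Ifrd1 null 2 (-0.02).

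The other 7 small-subunit genes had overlapping groups. Rrp9, which binds a small nucleolar RNA, lay at 0.07 ± 0.12 (log2, SE). Heatr1, Utp15, Wdr75, Rrp12, Nob1 and Utp20 lay between -0.05 and -0.19. In Utp15, Rrp12, Utp20 and Heatr1 wild type 2 stood above the 3 other arrays, at 6.36, 6.26, 6.81 and 6.63. Nob1, the endonuclease that makes the last cut of the small-subunit RNA, had 7.37 and 7.67 in the null arrays and 7.60 and 7.66 in the wild-type arrays.

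Of 13 genes for the large subunit, 12 were measured, 6 lower and 6 higher, with a median of -0.02. Brix1 had 7.36 and 7.33 in the null arrays and 7.44 and 7.61 in the wild-type arrays, with no overlap (-0.18 ± 0.11, SE, limma adjusted p = 0.765). Nop16 had 6.70 and 6.91 in the null arrays and 6.58 and 6.70 in the wild-type arrays. Its groups met almost exactly, between Ifrd1 null 1 and wild type 2, and its difference was 0.17 ± 0.13 (SE). Pes1, Bop1 and Wdr12 form one complex that is needed to process the large-subunit RNA. Pes1 had 7.68 and 7.84 in the null arrays and 7.87 and 7.88 in the wild-type arrays, both null arrays being lower. Its partners differed in direction, Bop1 at -0.14 ± 0.13 and Wdr12 at 0.14 ± 0.18 (log2, SE).

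Wdr74, the brightest gene for the large subunit, had the widest gap within a group. It had 7.99 and 8.82 in the null arrays and 8.45 in both wild-type arrays, so that the null arrays lay on either side of the wild-type level. Its difference was -0.04 ± 0.30 (SE) and its interval, from -0.84 to 0.75, was the widest of the list. The sign turned with quantile normalization (0.02), with cyclic loess (0.05) and without Ifrd1 null 1 (0.37). The remaining genes, Nop2, Nip7, Rrp1b, Rrs1, Nle1 and Ebna1bp2, lay between -0.10 and 0.04 with overlapping groups. A dimmer row of Rrs1 did not overlap, with 5.32 and 5.37 in the null arrays and 5.20 and 4.99 in the wild-type arrays (0.25).

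**Figure D3:**
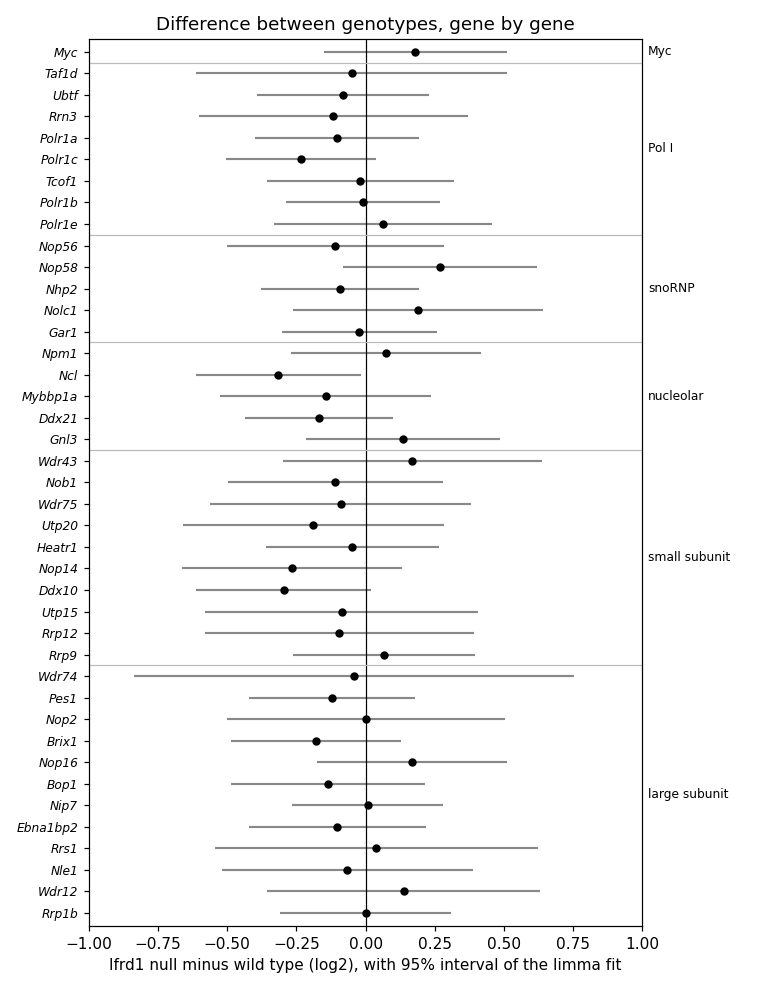
Difference between Ifrd1 null and wild type for each of the 41 genes (x axis, log2), with the 95% interval of the limma fit as a line and genes grouped by role down the y axis. Every interval but that of Ncl holds 0, and Wdr74 has the widest.

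Differences between arrays of one genotype were as large as those between genotypes. For 29 of the 41 genes the difference between genotypes was smaller in size than the gap between the null arrays. The gap between the null arrays exceeded that between the wild-type arrays for 31 of 41. Shares over all genes are not given for these counts. Median sizes in the list were 0.10 between genotypes, 0.17 between the null arrays and 0.13 between the wild-type arrays. Genes at or above the median level had 0.12, 0.17 and 0.11. The gap between the null arrays was the widest there too, so that was not particular to the list. Means of 2 arrays also vary less than single arrays, which by itself makes the gap within a group the wider. Ifrd1 null 2 was above Ifrd1 null 1 for 27 of 41 genes, with a median of 0.14 (log2), whereas this held for 5202 of 11090 genes at or above the median level. Wild type 2 was above wild type 1 for 33 of 41 genes, with a median of 0.10, 2 genes being equal, against 6230 of 11090. Against the wild-type mean the list had a median of -0.11 in Ifrd1 null 1 and -0.03 in Ifrd1 null 2. The median difference of the list was -0.11 without Ifrd1 null 2, -0.03 without Ifrd1 null 1, -0.10 without wild type 1 and -0.0071 without wild type 2. Of the 30 named genes of the pathway, 20 moved by over 1.5 times or changed sign when 1 array was left out. The other 10 were Polr1c, Ncl, Ddx21, Ddx10, Taf1a, Znhit3, Utp3, Urb2, Senp3 and Mga. All 10 were named for a small unadjusted p on these same arrays. That choice favours genes that change little when an array is left out, so their steadiness is no separate support.

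Cell type markers differed within the null group too. Acinar markers were higher in Ifrd1 null 2 for 12 of 12, by a median of 0.52, while macrophage markers were higher in Ifrd1 null 1 for 10 of 10, by a median of 0.65, and stellate and fibroblast markers for 10 of 10, by 0.49. Markers of cycling cells had a median of -0.0057 in Ifrd1 null 1 and -0.14 in Ifrd1 null 2, and of -0.01 and 0.01 in wild type 1 and 2. Other markers lay on one side of the wild-type mean in both null arrays. Duct markers had medians of -0.28 and -0.44 in Ifrd1 null 1 and 2 (7 of 8 lower in the null). Islet markers had -0.32 and -0.32 (7 of 9 lower), and T and NK cell markers 0.48 and 0.17 (8 of 8 higher). T and NK cell markers were at -0.23 and 0.23 in wild type 1 and 2, so wild type 2 lay above Ifrd1 null 2. Of these 8 genes 3 lay at or above the median level. Endothelial markers had -0.14 and -0.23 in the null arrays (7 of 8 lower), and intestinal markers, given above, were lower for 7 of 10. The part of cell composition in the values of the ribosome biogenesis genes was not tested.

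**Figure D4:**
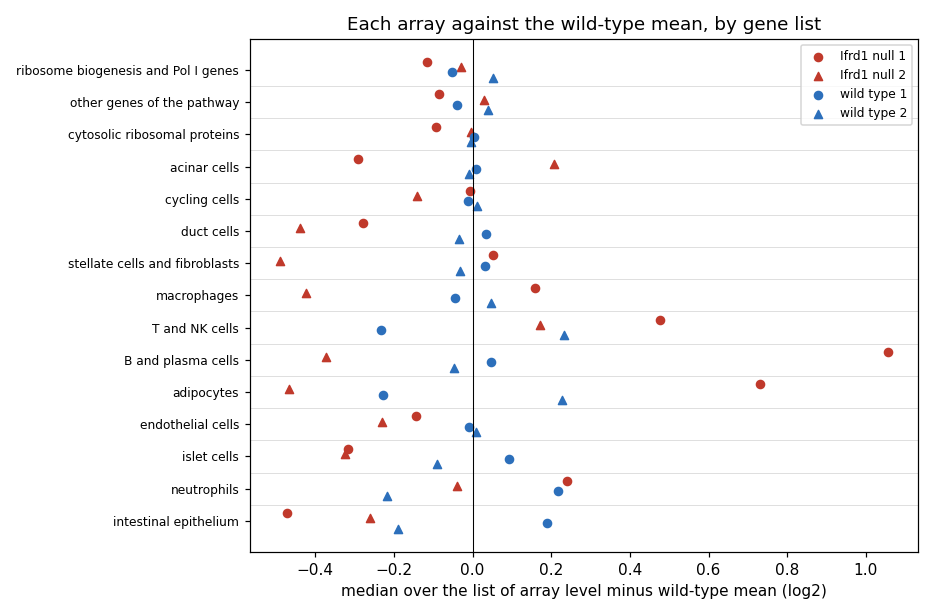
Median over each gene list of the level on an array minus the wild-type mean (x axis, log2), for Ifrd1 null 1 and 2 (red) and wild type 1 and 2 (blue), with gene lists down the y axis. The ribosome biogenesis genes span -0.11 to 0.05 over the 4 arrays, while B and plasma cell markers span -0.37 to 1.06.

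Other genes of the same pathway gave a like picture. A list of 102 further genes for polymerase I, snoRNPs, both subunits and the Myc network had 101 measured, 63 lower and 38 higher, with a median of -0.04. In that list 0 genes passed (limma adjusted p of at least 0.721), 3 were at unadjusted p under 0.05, and groups did not overlap for 19 lower (18.8%) and 12 higher (11.9%). These shares stood beside 19.7% and 16.1% of all genes and 29.1% and 8.82% of genes at or above the median level, so neither exceeded both backgrounds. The sign of the median turned with quantile normalization (0.01), with cyclic loess (0.03), without Ifrd1 null 1 (0.03) and without wild type 2 (0.0052).

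Taf1a, another subunit of the selectivity factor, had 4.83 and 4.80 in the null arrays and 5.18 and 5.27 in the wild-type arrays (-0.41 ± 0.10, SE), the lowest difference of the list. Znrd1, a small subunit of RNA polymerase I, had 5.48 and 5.61 in the null arrays and 5.38 and 5.14 in the wild-type arrays (0.29 ± 0.13). Twistnb, a polymerase subunit and the brightest of the 8 further polymerase I genes, had overlapping groups (0.14 ± 0.13). Of these 8 genes 5 were lower and 3 higher.

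Nop10, a core protein of H/ACA snoRNPs, had 8.00 and 8.02 in the null arrays and 8.16 and 8.32 in the wild-type arrays (-0.23 ± 0.11, SE). Znhit3, which takes part in snoRNP assembly, ran the other way with 5.29 and 5.25 in the null arrays and 5.09 and 5.03 in the wild-type arrays (0.21 ± 0.10). Of the 9 further snoRNP genes 7 were lower. Of 38 small-subunit genes 22 were lower, among them Utp3 (-0.31 ± 0.10) and Wdr36 (-0.36 ± 0.15), both of the processome, while Wdr46, the brightest, lay at -0.03 ± 0.22. The sign of Wdr46 turned with quantile normalization (0.03), with cyclic loess (0.07), without Ifrd1 null 1 (0.22) and without wild type 2 (0.12).

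Of 37 large-subunit genes 25 were lower (67.6%, against 67.3% of genes at or above the median level). Both null arrays were below both wild-type arrays for 11 (29.7%, against 29.1% of those brighter genes) and above for 1 (2.70%, against 8.82%). Urb2 was that 1 gene, with 7.48 in both null arrays and 7.14 and 7.19 in the wild-type arrays (0.32 ± 0.10, SE), the highest difference of the 101 genes. Senp3, a SUMO protease of the nucleolus, had 6.63 and 6.53 in the null arrays and 6.85 and 6.80 in the wild-type arrays (-0.25 ± 0.11). Nsa2, the brightest, lay at -0.08 ± 0.11 and turned with cyclic loess (0.0067). In the Myc network 9 of 9 genes were measured, 4 lower and 5 higher. Mga, a Max-binding repressor, lay at 0.17 ± 0.10, Mxd4, a Max partner that opposes Myc, at -0.15 ± 0.11, and Mycn at 0.26 ± 0.17 with levels of 3.75 to 4.25, below the median gene. The difference of Mycn was 0.06 without wild type 2 and 0.46 without wild type 1.

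The cytosolic ribosomal proteins, the products that these factors assemble, had 59 of 79 genes measured. Of these 59, 51 lay at or above the median level and the rest below it. Rps15, for example, had 1.98 and 4.01 in the null arrays and 3.18 and 3.15 in the wild-type arrays. How well such dim rows measure their mRNA was not tested. Of the 59 genes 34 were lower and 25 higher, with a median difference of -0.03 (log2), and 0 passed (2 at unadjusted p under 0.05). The median turned with quantile normalization (0.0057) and cyclic loess (0.04). Ribosome biogenesis genes and ribosomal proteins thus had medians of -0.07 and -0.03, both within 0.1 of that of all genes. No test of a difference between the lists was made.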

How the data were processed

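The deposited values are log2 levels per array and transcript cluster, taken from whole-pancreas total RNA labelled with biotin, per the labels' protocols. The log base is inferred from the values (0.218 to 13.9), and the authors' background correction, probe summary and normalization are not given in the sources used here. Array medians lay between 4.08 and 4.15, and arrays correlated with r from 0.986 to 0.991 across genes. Of 41345 rows, 23521 had 1 gene symbol in the platform annotation, 1814 had several and 16010 had none. The brightest row stood for each of 22180 genes. No filter on dim rows or detection call was used.

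Ifrd1 null was compared with wild type by limma 3.58.1 in R 4.3.3 (lmFit and eBayes, two-sided, no covariates). Benjamini-Hochberg adjustment was made over all genes at 0.05. The fit was tested on simulated data. There the adjusted threshold recovered most planted changes of 2 or more on the log2 scale, but not those of 1 or less. Every gene of the list differed by less than the smallest planted change. Errors of differences are moderated standard errors (SE). Only 2 arrays per group limit the precision of every value. The p-values set each difference against the spread between these samples, which limma moderates over all genes. Gene names and nesting came from a RefSeq gene table (GRCm38.p6), through which 5 older symbols of the further pathway genes were matched.

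The genes and lists were chosen with earlier results of these data known. Every measured gene is accounted for. Values per array follow a fixed rule: Myc, and of each role group the brightest gene and the pair with the smallest unadjusted p, likewise for the further lists. Others given per array were chosen after their values were seen. Alternatives were 3 normalizations, a replicate block, trend and robust eBayes, a level filter, the mean over rows, and leaving out each array.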

Additional observations from a re-analysis of the deposited data

How the results depend on the processing

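In every alternative run, 0 of the 41 genes passed the adjusted threshold. Over all genes the count past it was 4 with quantile normalization, 5 with arrays centred on their medians, 4 with cyclic loess, 4 with the replicate block, 5 with trend and robust eBayes, 0 among genes at or above the median level, and 0 with each array left out. List genes at unadjusted p under 0.05 numbered 0 with quantile normalization and with the replicate block (1200 and 1218 of 22180 genes), 2 with median centring and with trend and robust eBayes (1554 and 1470), 2 among brighter genes (884 of 11090), and 0 to 6 with an array left out (1301 to 2232). Genes of the list with separate groups numbered 20 to 32 with an array left out, where 3 arrays overlap less by construction. The share of all genes was not counted for these runs, so this range says nothing particular about the list. The list median was 0.011 with cyclic loess and lay between -0.11 and -0.0071 with an array left out. The median of the further pathway genes was 0.027 with cyclic loess and from -0.085 to 0.029 with an array left out. Ribosomal proteins had medians of 0.0057 with quantile normalization, -0.084 with median centring, 0.042 with cyclic loess, and -0.092 to -0.0036 with an array left out. Of 31 named genes, 7 changed sign somewhere: Taf1d (0.0064 with quantile normalization, 0.034 with cyclic loess, 0.029 with the mean over rows, and -0.31 to 0.21 with an array left out), Nop56 (-0.24 to 0.024), Npm1 (-0.070 with the mean over rows, -0.043 to 0.19), Wdr43 (-0.017 to 0.36), Wdr74 (0.023 with quantile normalization, 0.052 with cyclic loess, -0.46 to 0.37), Wdr46 (0.029 and 0.069 likewise, -0.27 to 0.22) and Nsa2 (0.0067 with cyclic loess). Same-numbered arrays deviated from their group means with r = -0.04 over all genes. With 2 arrays per group this is a single contrast and cannot exclude pairing. The labels give no pairs, so the numbers are not read as pairs. The cause of these changes was not tested. Levels near the dim end of the arrays, as for Mycn, have no detection call.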

Other observations

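Some genes of the list carry small nucleolar RNAs (snoRNAs) in their introns, and snoRNAs guide the modification of ribosomal RNA. This set was chosen after the data were seen, as the snoRNA genes that lie within a gene of the list in the RefSeq gene table. There were 24 in 7 host genes, of which 10 were measured. Of these, 8 were lower in the null and 2 higher, with a median of -0.12 (log2), and 0 passed over all genes (limma adjusted p of at least 0.721). The share that was lower was 52.7% of all genes and 67.3% of genes at or above the median level. The number of arrays is 2 per group.

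Snora75, within Ncl, had 4.34 and 3.999 in the null arrays and 4.78 and 4.95 in the wild-type arrays, a difference of -0.70 ± 0.16 (SE), at a level near the median gene. Snord82, which also lies within Ncl, had 11.41 and 10.97 in the null arrays and 11.20 and 11.10 in the wild-type arrays (0.04 ± 0.18), so the 2 snoRNAs of this host differed in direction. Snord69, within Gnl3, had 9.56 and 9.37 in the null arrays and 9.83 and 9.82 in the wild-type arrays (-0.36 ± 0.12), while Gnl3 itself lay at 0.14 ± 0.13. Groups did not overlap for Snora75 and Snord69, both lower, which is 20% of the 10 and near the 19.7% of all genes that were lower without overlap. Within Nop58, Snord70 lay at -0.02 ± 0.18 and Snord11 at -0.13 ± 0.18, against 0.27 ± 0.13 for the host.

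Between the null arrays, 9 of the 10 snoRNAs were higher in Ifrd1 null 1, whereas 27 of the 41 ribosome biogenesis genes were higher in Ifrd1 null 2. Over all 22180 genes, 10175 were higher in Ifrd1 null 1 and 11096 in Ifrd1 null 2. With 10 snoRNAs picked after the data were seen, this contrast is a description only. Whether RNA quality or labelling differed between these arrays was not tested.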
